A study of Homo sapiens with 24 samples.

Results

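RNF43 and 9 other genes of the receptor and feedback part of the Wnt pathway (ZNRF3, LGR4, LGR5, LRP5, LRP6, AXIN1, AXIN2, CTNNB1 and TCF7L2) were followed through a PRO-seq experiment on depletion of the transcription factor TRPS1, 10 of the 60605 genes in the count table. The set was chosen by gene name, with the knowledge that the RNF43 count was higher after depletion in all 12 pairs of libraries. The change of RNF43 on depletion is therefore given below as a description without a test, while the other 9 genes, the levels before depletion and the levels by replicate number were tested. All 10 genes passed the filter on low counts, along with 22326 genes in all.

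The Wnt pathway controls the stability of β-catenin, the product of CTNNB1, which the Axin scaffold proteins and their partner kinases mark for destruction until a Wnt ligand binds a Frizzled receptor and its LRP5 or LRP6 co-receptor. β-catenin that escapes destruction enters the nucleus and works with TCF/LEF factors such as TCF7L2. RNF43 and ZNRF3 are related membrane ubiquitin ligases that remove Frizzled receptors from the cell surface, and R-spondins, through LGR4 and LGR5, clear these ligases. RNF43, ZNRF3, AXIN2 and LGR5 are known as genes that β-catenin itself induces in several epithelia, so they are commonly used as readouts of the pathway.

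The cells were T47D, an ER-positive luminal breast cancer line, in which TRPS1, a repressive GATA-family factor, carries a degron tag (dTAG). The compound dTAG-13 brings an E3 ubiquitin ligase to the tag, so the protein is destroyed while its gene is still transcribed. Clones 28, 35 and 39 were treated for 90 minutes with 0.1% DMSO or with 100 nM dTAG-13 in DMSO, with 4 replicates of each, which gave 6 groups and 24 libraries. Every group carries the tag, each clone is 1 line, all derive from one earlier selected clone in which no insertion was found, and some of the TRPS1 copies in them are disrupted so that only tagged protein is made. Replicates were treated and collected at different times of one day and the treatments were collected together, so libraries of a clone with the same replicate number form a pair. Untagged cells and cells exposed to dTAG-13 without the tag were not among the groups.

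Total counts per library were between 3226718 and 9575803, with a median of 5042122. TRPS1 itself had between 23280 and 69958 counts in every library, but as depletion acts on the protein this does not check the labels. The luminal markers (ESR1, PGR, GATA3, FOXA1, KRT8, KRT18, KRT19 and XBP1) summed to between 3738 and 6108 CPM (read counts scaled to library size with TMM), against at most 31.8 for 6 basal, 23.4 for 4 fibroblast and 26.5 for 4 immune markers. Among the 6 basal markers, TP63 reached at most 22.1 CPM, ACTA2 13.4, MYH11 5.58, KRT14 1.25, KRT17 0.746 and KRT5 0.312. With the 3 clones together, 123 of 22326 genes passed an adjusted p of 0.1 for the treatment (80 higher and 43 lower), or 521 (313 higher and 208 lower) when each pair had its own term.

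RNF43 lies at chr17:58353676-58417595 on the minus strand (hg38, GENCODE 44) and its reference transcript has 10 exons. Within the set, TCF7L2 differed most between clones in the direction opposite to RNF43. The bases just upstream of RNF43 and of TCF7L2 are shown to compare the start regions of both genes. They come from RefSeq promoter entries on GRCh38.p14 and are limited to bases before the GENCODE gene. Each reads 5′ to 3′ on the strand of its gene, chr17:58417596-58417784 on the minus strand and chr10:112949997-112950246 on the plus strand, with CG dinucleotides in capitals.
RNF43: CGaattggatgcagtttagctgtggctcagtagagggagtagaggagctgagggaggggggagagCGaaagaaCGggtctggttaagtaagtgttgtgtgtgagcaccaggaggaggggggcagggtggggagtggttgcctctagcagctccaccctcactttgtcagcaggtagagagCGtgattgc
TCF7L2: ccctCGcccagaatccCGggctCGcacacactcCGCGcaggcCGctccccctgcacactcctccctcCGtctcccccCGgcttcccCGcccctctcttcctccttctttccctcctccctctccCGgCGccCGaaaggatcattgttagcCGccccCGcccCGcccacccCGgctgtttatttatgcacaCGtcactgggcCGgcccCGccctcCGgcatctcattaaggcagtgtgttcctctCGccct

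RNF43 had 4 CG dinucleotides and 56.0% G or C in the 250 bases before its RefSeq start, against medians of 11 and 58.0% over 34788 promoters. Of the 6 genes of the set with an entry, the others had more CG dinucleotides, with 14 for LGR4, 21 for TCF7L2, 34 for CTNNB1, 35 for AXIN1 and 43 for LRP5. LGR5, ZNRF3, LRP6 and AXIN2 had no entry. The same 250 bases were searched on both strands for the exact letters of 3 motifs, none of which was in any of the 6. Other spellings of these motifs were not searched. The letters AGATAA, which GATA factors bind, were in 9.21% of all promoters. The estrogen receptor half-site, searched as AGGTCA, was in 12.02%. The letters CTTTGA, which TCF/LEF factors bind, were in 11.2%.

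RNF43 counts were higher after TRPS1 depletion in each clone. In Clone 28 the 4 DMSO libraries had 111, 124, 105 and 109 CPM (replicates 1 to 4) and the dTAG-13 libraries 132, 138, 150 and 137 CPM. In Clone 35 they had 117, 100, 112 and 104 CPM in DMSO and 120, 119, 132 and 113 CPM in dTAG-13. In Clone 39 they had 72.6, 71.0, 77.1 and 64.9 CPM in DMSO and 81.4, 88.1, 78.1 and 82.5 CPM in dTAG-13. Every dTAG-13 library was above every DMSO library of its clone in Clones 28 and 39, and the groups overlapped in Clone 35, where replicate 4 in dTAG-13 was below replicate 1 in DMSO. Among all genes tested, 1.55% in Clone 28, 1.13% in Clone 35 and 1.12% in Clone 39 were higher in this way without overlap. In these bulk libraries, a change in the share of cells that transcribe RNF43 and a change in its transcription per cell cannot be told apart.

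The group means of RNF43 were 112 ± 8.09 and 139 ± 7.58 CPM in Clone 28 (DMSO and dTAG-13, SD, n = 4 each), 108 ± 7.46 and 121 ± 7.84 CPM in Clone 35, and 71.4 ± 5.04 and 82.5 ± 4.15 CPM in Clone 39. The fitted log2 fold change was 0.32 (SE 0.066) in Clone 28, 0.16 (SE 0.066) in Clone 35 and 0.21 (SE 0.071) in Clone 39, and 0.23 (SE 0.039) with the 3 clones together. Over the 12 pairs the log2 difference was between 0.02 and 0.52, with a mean of 0.23 and an SD of 0.14. Thus the smallest pair difference, in replicate 3 of Clone 39, was close to 0, and the largest, in replicate 3 of Clone 28, was more than an SD above the mean. The log2 fold change was between 0.21 and 0.25 with any one library left out, and between 0.19 and 0.27 with any one clone left out. As RNF43 was chosen for rising in every pair, these ranges describe the change and are no test of it.

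RNF43 was 1 of 81 genes, 0.363% of those tested, that were higher in all 12 pairs, and 44 genes (0.197%) were lower in all 12. Of the 81, 29 had a larger log2 fold change than RNF43, as had 786 of all genes tested. LRP6 and LGR5 came next in the set, with 8 of 12 pairs higher each, and AXIN1 was higher in 1 of 12.

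**Figure D1:**
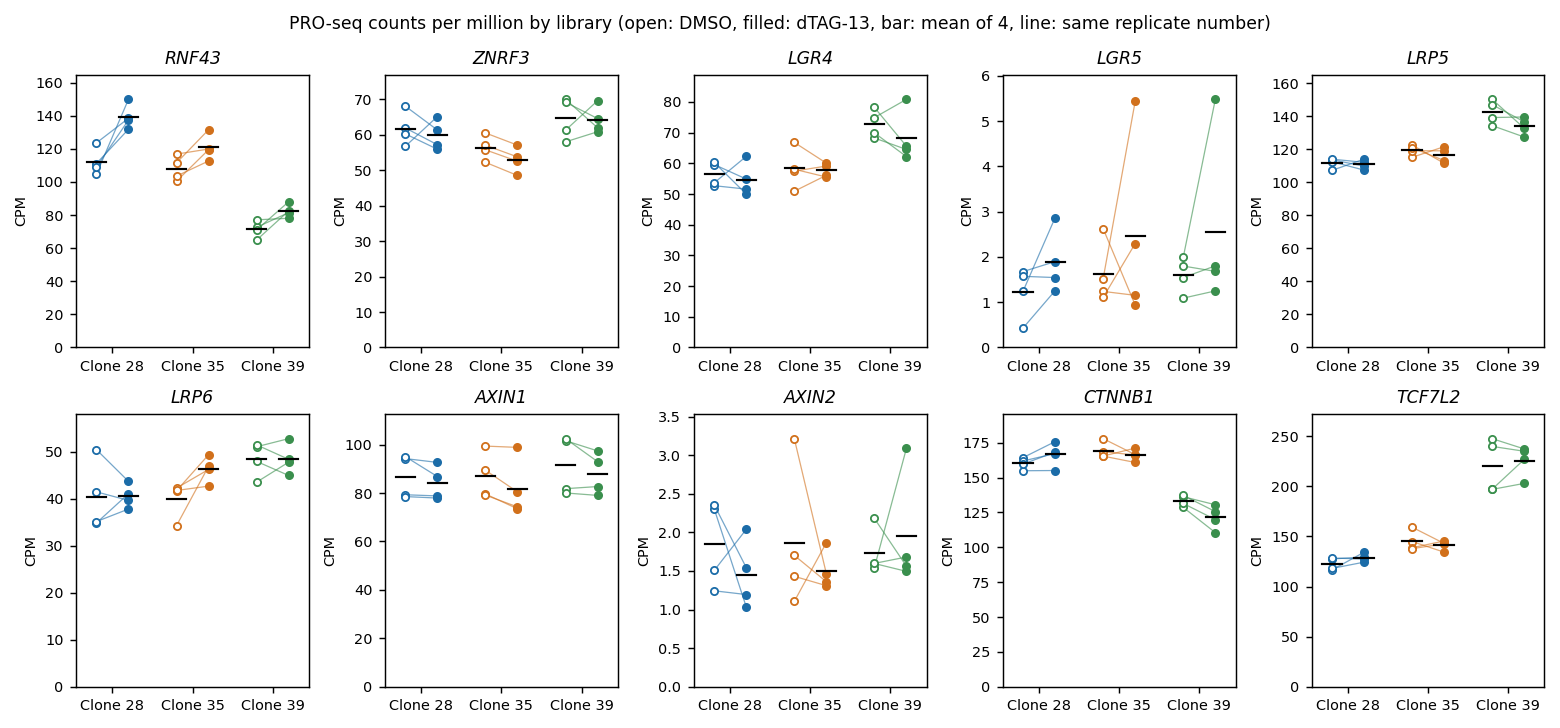
CPM (linear axis from 0) of the 10 genes in the 24 libraries, by clone, with DMSO as open and dTAG-13 as filled circles, a line between libraries of the same replicate number and a bar at the mean of 4. RNF43 is higher in dTAG-13 in every pair and lower in Clone 39 than in the other clones, and TCF7L2 is highest in Clone 39.

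Reads at RNF43 are also counted for other annotated genes. A readthrough gene on the same strand, ENSG00000285897 (chr17:58345206-58417595), spans RNF43 and the next gene downstream, SUPT4H1, which encodes a transcription elongation factor. The RNF43 and SUPT4H1 counts summed to between 0.977 and 0.998 times the readthrough gene's count in each library, so nearly all reads were counted for both, and RNF43 made up 62.9% to 78.0% of that count. SUPT4H1 alone had a log2 fold change of -0.01 and was higher in 4 of 12 pairs (adjusted p = 1.00, edgeR), and the antisense RNA TSPOAP1-AS1 had 0.04 with 6 of 12 pairs higher (adjusted p = 1.00). Whether counting used the strand is not given in the sources used here. Reads of RNF43 and of TSPOAP1-AS1, which averaged 29.8 CPM, may therefore not be fully separated. A like limit holds for the other genes of the set but LRP5 and AXIN1, which overlap no annotated gene. AXIN2 overlaps ENSG00000266076 on its own strand (a mean of 4.43 CPM). On the other strand, CTNNB1 overlaps ULK4 (91.5 CPM) and LRP6 overlaps BCL2L14 (3.46 CPM).

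ZNRF3 (chr22:28883572-29057488, plus strand), the other ligase of this pair, had overlapping values in DMSO and dTAG-13. In Clone 28 it had 68.1, 56.8, 62.0 and 60.3 CPM in DMSO and 61.4, 65.2, 57.2 and 56.0 CPM in dTAG-13. In Clone 35 it had 55.8, 52.3, 57.1 and 60.6 CPM in DMSO and 52.6, 48.6, 53.8 and 57.1 CPM in dTAG-13. In Clone 39 it had 70.0, 69.2, 58.0 and 61.3 CPM in DMSO and 62.0, 64.6, 60.9 and 69.7 CPM in dTAG-13. The values overlapped in every clone, and the ZNRF3 count was higher in dTAG-13 in 3 of 12 pairs. Its log2 fold change was -0.05 (SE 0.043, 95% interval -0.14 to 0.04), with an adjusted p of 0.995 in edgeR's quasi-likelihood test and 0.782 with the pairs in the model.

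None of the 9 genes tested passed the threshold with the 3 clones together, where 0.551% of all genes did, nor with the pairs in the model, where 2.33% did (edgeR). LGR5 alone had an unadjusted p under 0.05 in edgeR and in DESeq2, where none passed either, and LGR5 and AXIN1 did with the pairs in the model. LGR4, which binds R-spondins, had between 50.0 and 80.8 CPM over the 24 libraries and a log2 fold change of -0.05 (95% interval -0.15 to 0.05, adjusted p = 0.994). LGR5, its relative and a stem cell marker of the gut, was near the limit of detection at 2 to 26 counts per library, and its fitted log2 fold change of 0.58 had a 95% interval from -0.01 to 1.17 (adjusted p = 0.776, or 0.279 with the pairs). The highest LGR5 values, 5.48 CPM in Clone 39 and 5.44 CPM in Clone 35, came from 1 dTAG-13 library each, while the other dTAG-13 libraries of these clones had at most 2.30 CPM.

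The co-receptors also stayed below the threshold. LRP5 had a log2 fold change of -0.05 (95% interval -0.11 to 0.02, adjusted p = 0.934) and LRP6 0.08 (-0.04 to 0.19, adjusted p = 0.963). In Clone 35, LRP6 had 41.7, 42.3, 41.8 and 34.3 CPM in DMSO and 49.4, 46.2, 42.7 and 46.9 CPM in dTAG-13. These groups do not overlap, as for 1.13% of all genes in this clone, with replicate 4 in DMSO lowest. The log2 fold change of LRP6 there was 0.21 (SE 0.093, adjusted p = 1.00, or 0.575 with the pairs), and it was 0.01 in Clone 28 and 0.00 in Clone 39.

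AXIN1, the constant scaffold of the destruction complex, had a log2 fold change of -0.06 (95% interval -0.18 to 0.06, adjusted p = 0.993). Its count was lower in dTAG-13 in 11 of 12 pairs, by small steps, with pair differences from -0.15 to 0.02, and with the pairs in the model the adjusted p was 0.454. AXIN2, the scaffold that β-catenin induces, had only 5 to 19 counts per library, and its log2 fold change of -0.17 had a 95% interval from -0.59 to 0.25 (adjusted p = 1.00). At this depth a change of AXIN2 or LGR5 of the size seen for RNF43 was not detectable.

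CTNNB1 had a log2 fold change of -0.03 with the 3 clones together (95% interval -0.10 to 0.04, adjusted p = 0.999). In Clone 28 it had 164, 162, 155 and 160 CPM in DMSO and 176, 167, 155 and 168 CPM in dTAG-13, and in Clone 39 136, 137, 129 and 131 CPM in DMSO and 131, 126, 111 and 120 CPM in dTAG-13. All 4 pairs were thus higher in Clone 28 and all 4 lower in Clone 39, by means of 0.06 and -0.13 on the log2 scale, with overlap between the treatments in both. The test of a difference in response between the clones gave an adjusted p of 1.00 for CTNNB1, with an unadjusted p of 0.0776, or 0.0297 with the pairs in the model. TCF7L2 had a log2 fold change of 0.02 (95% interval -0.06 to 0.10, adjusted p = 1.00).

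Within the clones, 0 of the 9 genes passed in Clone 28, where 0.0537% of all genes did, and 0 in Clones 35 and 39, where 0.0% did (edgeR). An unadjusted p under 0.05 was found for LRP6 in Clone 35 and CTNNB1 in Clone 39. With the pairs in the model, 1.18%, 0.0941% and 0.0717% of all genes passed in the 3 clones and again 0 of the 9. For the difference in response between clones, 0.0% of all genes and 0 of the 9 passed (edgeR), and with the pairs in the model 0.00448% and again 0 of the 9.

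**Figure D2:**
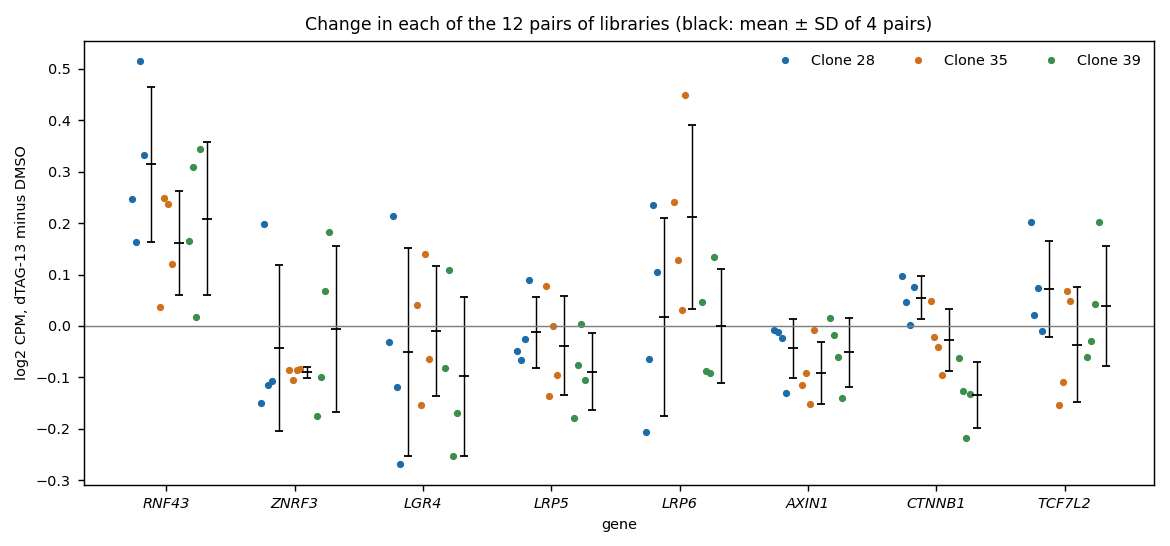
Difference in log2 CPM between dTAG-13 and DMSO in each of the 12 pairs of libraries for the 8 genes with more than 100 counts per library, by clone, with the mean and SD of 4 pairs in black. All 12 points of RNF43 are above 0, 11 of 12 of AXIN1 are below 0, and those of CTNNB1 are above 0 in Clone 28 and below 0 in Clone 39.

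Per kilobase of gene, so that genes of different length can be compared, CTNNB1 was the most transcribed of the set, with a median of 2.47 CPM per kb over 24 libraries, followed by RNF43 (1.72), AXIN1 (1.26), LRP5 (0.871), TCF7L2 (0.657), LGR4 (0.560), ZNRF3 (0.347), LRP6 (0.289), AXIN2 (0.0469) and LGR5 (0.0106). The order between neighbours held in 24 of 24 libraries for CTNNB1 over RNF43, AXIN1 over LRP5, LGR4 over ZNRF3, LRP6 over AXIN2 and AXIN2 over LGR5. It held in 23 for TCF7L2 over LGR4, 22 for ZNRF3 over LRP6, 19 for LRP5 over TCF7L2 and 18 for RNF43 over AXIN1. RNF43 had more counts per kb than its partner ZNRF3 in every group, by a ratio in DMSO of 4.97 ± 0.666 in Clone 28, 5.22 ± 0.432 in Clone 35 and 3.03 ± 0.394 in Clone 39 (SD, n = 4). Before division by length, the DMSO means of RNF43 and ZNRF3 were 112 and 61.8 CPM in Clone 28, 108 and 56.4 in Clone 35 and 71.4 and 64.7 in Clone 39. Where the reads lie along each gene was not examined. In dTAG-13 the ratios per kb were 6.36 ± 0.656, 6.23 ± 0.617 and 3.50 ± 0.204.

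The clones differed from each other before depletion. Among the 10 genes, 6 differed between the clones in DMSO (edgeR, F test over the 3 clones), where 28.5% of all genes did: TCF7L2 (adjusted p = 3.44e-11), RNF43 (3.47e-09), LRP5 (1.05e-05), CTNNB1 (3.07e-05), LGR4 (0.00232) and LRP6 (0.0431). ZNRF3 (0.139, or 0.0586 with the replicate number as a block, where 43.0% of all genes passed), AXIN1 (0.851), LGR5 (0.874) and AXIN2 (0.961) did not pass. Each clone is 1 line, so these tests compare the lines and their replicate dishes.

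RNF43 was lowest in Clone 39, with 64.9 to 77.1 CPM in its 4 DMSO libraries. All were below those of the other clones, at 100 to 124 CPM. The share of all genes with this order was not counted. Among all genes, 14.3% passed as lower in Clone 39 than in Clone 28, and 12.9% than in Clone 35 (edgeR). The log2 difference was -0.65 (SE 0.069, adjusted p = 4.97e-09) from Clone 28 and -0.60 (SE 0.069, adjusted p = 2.77e-08) from Clone 35, more than the change with dTAG-13 in any clone. Clones 35 and 28 differed by -0.05 (95% interval -0.19 to 0.08, adjusted p = 0.805). In dTAG-13, RNF43 in Clone 39 (78.1 to 88.1 CPM) was still below the DMSO libraries of the other clones. The Clone 39 libraries had between 3226718 and 5293723 counts, among the lower totals, and the part of depth in these differences was not tested.

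TCF7L2 went the other way, with 117, 128, 118 and 128 CPM in the DMSO libraries of Clone 28, 159, 145, 139 and 138 in Clone 35 and 248, 240, 197 and 197 in Clone 39. No library of one clone overlapped those of another, and the share of all genes separated in this way was not counted. Clone 39 was above Clone 28 by 0.84 (SE 0.071, adjusted p = 2.55e-11) and above Clone 35 by 0.60 (SE 0.070, adjusted p = 2.97e-08) on the log2 scale, and Clone 35 was above Clone 28 by 0.24 (SE 0.071, adjusted p = 0.0480). The last of these was lost when the 12 DMSO libraries were fitted alone (adjusted p = 0.164) and when any one of 4 libraries was left out, as listed with the other alternatives. With the replicate number as a block in those 12 libraries it passed (adjusted p = 0.00356, edgeR).

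Against Clone 28, 6 of the 10 genes differed in Clone 39, where 26.7% of all genes did. Beside RNF43 and TCF7L2, the co-receptor LRP5 was higher by 0.35 (SE 0.054, adjusted p = 5.47e-06), the R-spondin receptor LGR4 by 0.36 (SE 0.086, adjusted p = 0.00211) and LRP6 by 0.27 (SE 0.098, adjusted p = 0.0494), and CTNNB1 was lower by a log2 difference of -0.26 (SE 0.056, adjusted p = 5.82e-04). Against Clone 35, 7 of the 10 differed in Clone 39, where 22.6% of all genes did, and the 7th was ZNRF3, higher by 0.20 (SE 0.076, adjusted p = 0.0713). This call of ZNRF3 was lost without any one of 5 libraries (adjusted p = 0.111 to 0.248). Between Clones 35 and 28 only TCF7L2 passed, where 5.25% of all genes did. In Clone 39, therefore, the receptors LGR4, LRP5 and LRP6 and the nuclear factor TCF7L2 were higher, and RNF43 and CTNNB1 lower, than in both other clones. The calls of LRP6 were lost without any one of 4 libraries against Clone 28 (adjusted p = 0.143 to 0.212) and any one of 3 against Clone 35 (adjusted p = 0.104 to 0.176).

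**Figure D3:**
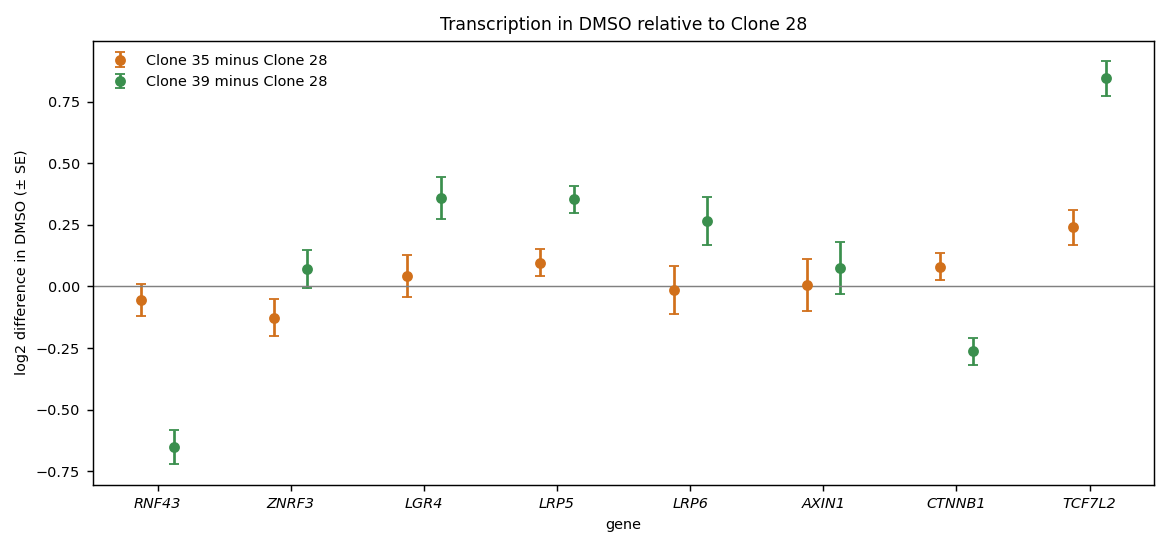
Log2 difference in DMSO of Clone 35 and of Clone 39 from Clone 28 for the 8 genes with more than 100 counts per library, with the SE of the fit. For Clone 39, RNF43 and CTNNB1 lie below 0 and TCF7L2, LRP5, LGR4 and LRP6 above it, while for Clone 35 TCF7L2 alone passed the test.

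Pearson's r of log2 CPM with RNF43 was taken over the 12 DMSO libraries, which share their clones. It therefore includes the clone differences given above and is no separate evidence. It was 0.88 for CTNNB1, -0.93 for LRP5, -0.87 for TCF7L2, -0.86 for LGR4, -0.53 for LRP6, -0.47 for ZNRF3 and -0.31 for AXIN1. The share of all genes with an r of this size was not counted. The 5 genes most like RNF43 among 14689 with a mean count of at least 50 were SORL1 (r = 0.98), LINC02208 (0.98), ENSG00000287100 (0.97), ARHGAP10 (0.97) and PIK3R4 (0.97), each of which was lowest in Clone 39. For example, SORL1, a sorting receptor, had 308 ± 14.1 CPM in Clone 28, 312 ± 10.3 in Clone 35 and 201 ± 4.72 in Clone 39 (SD, n = 4).

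Levels also differed by replicate number, which marks the time of treatment and collection, in the set about as often as among all genes. The labels do not say whether a number stands for the same time in the 3 clones. Among the 9 genes with enough counts in the 12 DMSO libraries, 3 differed between the 4 numbers (edgeR, F test with clone in the model), where 30.3% of all genes did: AXIN1 (adjusted p = 1.57e-05), LRP6 (0.0110) and TCF7L2 (0.0455). RNF43 did not pass (adjusted p = 0.463). AXIN1 had 79.3, 78.6, 94.2 and 95.1 CPM in DMSO in Clone 28, 79.6, 79.2, 89.4 and 99.4 in Clone 35 and 81.8, 80.0, 102 and 102 in Clone 39 for numbers 1 to 4. Replicates 3 and 4 were above replicates 1 and 2 in all 3 clones, as for 7.61% of all genes, by a mean of 0.28 on the log2 scale. The dTAG-13 libraries, which the first test did not use, showed the same order for AXIN1 in all 3 clones, with a mean of 0.23. How many of all genes had this order in dTAG-13 was not counted. The F test between the 4 numbers in the dTAG-13 libraries gave an adjusted p of 0.00136 (edgeR), where 20.1% of all genes passed.

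This difference of AXIN1 between replicate numbers was larger than its fitted change with dTAG-13, and both libraries of a pair share it. LRP6 in DMSO averaged 47.8, 45.1, 41.5 and 37.7 CPM for numbers 1 to 4 over the 3 clones. The difference did not pass in the dTAG-13 libraries for LRP6 (adjusted p = 0.359) or TCF7L2 (0.536). LGR4 passed in the dTAG-13 libraries (0.0241), where 20.1% of all genes did, but not in DMSO (0.615). The change of RNF43 with dTAG-13 was 0.15, 0.24, 0.26 and 0.27 on the log2 scale for numbers 1 to 4, averaged over the clones.

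**Figure D4:**
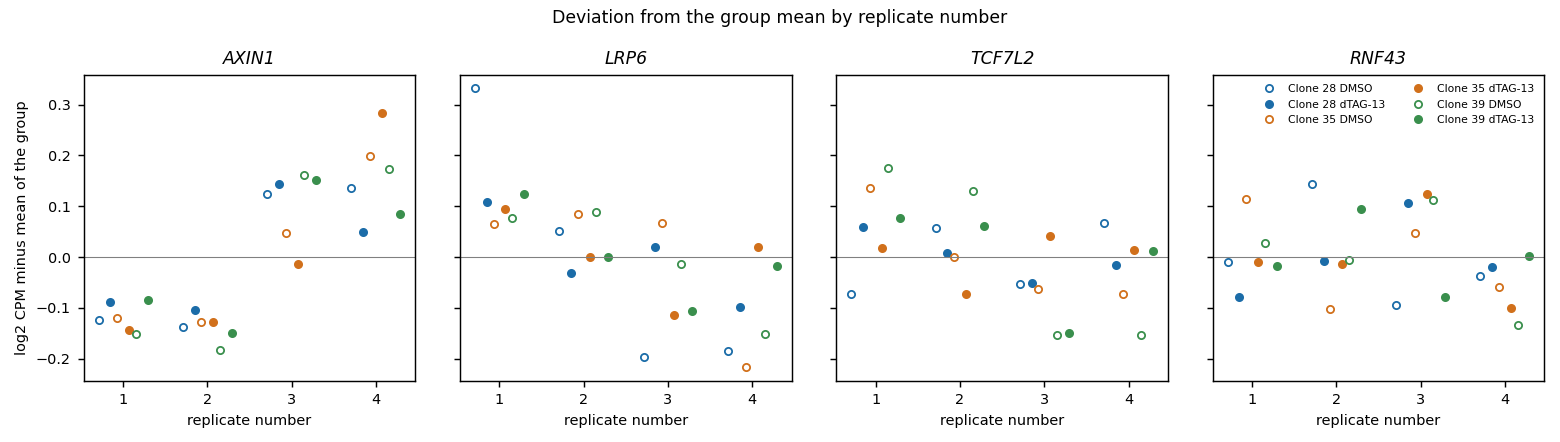
Log2 CPM minus the mean of the group of 4 for AXIN1, LRP6, TCF7L2 and RNF43 by replicate number, with DMSO as open and dTAG-13 as filled circles and clones in colour. AXIN1 replicates 3 and 4 lie above replicates 1 and 2 in all 6 groups, and RNF43 has no such order.

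Of 89 further genes of the Wnt pathway, 65 had enough counts to be tested. With the 3 clones together none passed for the treatment in edgeR or DESeq2, with 5 at an unadjusted p under 0.05 in each, and the median log2 fold change of the 65 was -0.04 against 0.00 over all genes. By role, the untested included 8 of 19 ligands and 9 of 14 extracellular inhibitors, and all 12 nuclear factors were tested. With the pairs in the model, where 0.932% of all genes were lower, 3 of the 65 fell: the ligand WNT4 (log2 fold change -0.25, adjusted p = 0.0918), the co-repressor TLE3 (-0.12, 0.0151) and the cyclin gene CCND1 (-0.12, 0.0141), each higher in dTAG-13 in only 2 of 12 pairs. Without the pairs their adjusted p was 0.349, 0.447 and 0.402. In Clone 28 alone with the pairs in the model the receptor gene FZD4 rose by 0.33 (adjusted p = 0.0297, or 0.277 without the pairs), where 0.793% of all genes rose.

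Between the clones in DMSO, 24 of the 65 differed, where 28.5% of all genes did. Clone 39 had 9 of the 65 higher and 14 lower than Clone 28, where 12.4% of all genes were higher and 14.3% lower. TCF7L1, a TCF factor related to TCF7L2, had 44.3 ± 9.48 CPM in Clone 28, 89.2 ± 9.63 in Clone 35 and 151 ± 12.4 in Clone 39 (SD, n = 4), with a log2 difference of 1.77 between Clones 39 and 28 (adjusted p = 3.88e-12). WNT4 had 12.1 ± 0.639, 10.8 ± 0.801 and 33.6 ± 4.93 CPM (log2 difference 1.47, adjusted p = 2.19e-10). The other 3 with the smallest p among those higher were the receptor FZD4 (0.35), PYGO1 (0.72), a partner of the β-catenin complex, and WLS (0.45), which carries Wnt ligands to the cell surface. The Wnt inhibitor DKK1 had 0 to 2 counts per DMSO library in Clone 39, 18 to 26 in Clone 28 and 26 to 45 in Clone 35. The receptor ROR2 (-0.58), the target gene ASCL2 (-1.20), the kinase GSK3B (-0.32) and DVL3 (-0.43), which relays the receptor signal, were the next among those lower.

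By role, and beside the 12.4% of all genes higher and 14.3% lower in Clone 39 than in Clone 28, both ligand release genes, 1 of 11 ligands and 2 of 12 nuclear genes were higher with none lower. Among extracellular inhibitors 2 of 5 and among target genes 3 of 4 were lower with none higher. Receptors had 1 of 11 higher and 3 lower, the 17 cytoplasmic genes 3 higher and 6 lower, and the 2 R-spondins tested and the R-spondin receptor LGR6 did not pass. Against Clone 35, Clone 39 had 7 of the 65 higher and 16 lower, where 9.64% and 12.9% of all genes were. The smallest p among these were for WNT4 (1.64), TCF7L1 (0.77), LEF1 (1.36), PYGO1 (0.87) and FZD3 (0.27), all higher, and for GSK3B (-0.37), ROR2 (-0.52), WLS (-0.96), DVL3 (-0.48) and DKK1, all lower. Clone 35 had 3 higher (WLS 1.41, TCF7L1 1.01 and FZD4 0.40) and 2 lower (LEF1 -1.37 and KREMEN1 -0.27) than Clone 28, where 2.24% and 3.01% of all genes were. With the replicate number as a block, 33 of 60 list genes differed between the clones in DMSO, where 43.0% of all genes did. Genes named under the rule only in that fit were TLE1 (log2 difference 0.34), APC (0.19) and CSNK1A1 (-0.27) between Clones 39 and 28, CSNK1A1 (-0.28) and GSK3A (0.30) between Clones 39 and 35, and KREMEN2 (0.51), ROR1 (0.73) and TLE3 (-0.16) between Clones 35 and 28. Between replicate numbers in DMSO, 24 of 60 list genes differed, where 30.3% of all genes did, with the smallest p for MYC (adjusted p = 3.85e-09), WNT9A (1.99e-08), APC (1.19e-06), CSNK1A1 (1.32e-05) and TNKS2 (1.40e-05).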

How the data were processed

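PRO-seq, which sequences nascent RNA held by engaged RNA polymerase, was analysed in 24 libraries grouped by clone and treatment from the sample labels. The authors trimmed reads with cutadapt 1.8.1, deduplicated them with fqdedup and UMIs, removed ribosomal reads, aligned with Bowtie2 2.4.4, sorted with SAMtools 1.9 (versions from the submitters' processing notes, which name hg38), and counted them per gene with bedtools. The deposited values are counts, whole reads per gene without normalization. The annotation and strand setting of the counting are not given in the sources used here. Of 60605 identifiers, 60463 matched GENCODE 44, which gave names and coordinates.

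Counts were fitted with edgeR 4.0.16 in R 4.3.3 (TMM, filterByExpr with a minimum count of 10, robust quasi-likelihood, Benjamini-Hochberg over all genes tested, threshold 0.1). The model had clone and treatment with the clones together (20 residual degrees of freedom) and 6 groups otherwise (18). Intervals are the fitted value and its SE with these degrees of freedom alone. The quasi-likelihood tests also share information across genes, so for LGR5 the interval includes 0 at an unadjusted p under 0.05. Log2 CPM used a prior count of 2. Alternatives included DESeq2 1.42.0, and fits were tested on simulated data. Nothing in the labels says that replicates came from separate cultures beyond separate dishes and times, so p-values measure that spread. Between replicates, chi-square divided by its degrees of freedom was 1.58 to 11.9, above counting error.

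Pairing comes from the labels. The deviations of paired libraries from their group means had a mean correlation of 0.19 (0.09 to 0.32 over 12 pairs). All 10 genes are named, of the wider list up to 5 past the threshold per direction with the smallest p, and the 5 genes most correlated with RNF43. The genes, lists and tests were chosen with earlier results of these data known.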

Additional observations from a re-analysis of the deposited data

Results flagged for a closer look

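In 60 groups of 4 libraries (10 genes in 6 groups), 3 held a library far from the other 3, and about 3 are what chance gives. LRP6 had 34.3 CPM in replicate 4 of Clone 35 in DMSO, against 41.7 to 42.3 in the others. AXIN2 had 2.18 CPM (8 counts) in replicate 3 of Clone 39 in DMSO, against 1.54 to 1.60, and 3.09 CPM (12 counts) in replicate 2 of Clone 39 in dTAG-13, against 1.49 to 1.68. The change of CTNNB1 with dTAG-13 was in opposite directions in all pairs of 2 clones, with a mean log2 difference of 0.055 in Clone 28 and -0.13 in Clone 39. The test of the difference between the 3 clones gave an adjusted p of 1.00 (edgeR) with and without the pairs in the model.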

How the results depend on the processing

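With the 3 clones together, 0 of the 9 genes other than RNF43 passed under every alternative run. The direction of RNF43 was part of the choice of the set, so it is not used as a check. The number of all genes passing the treatment test (123) moved to 64 at a threshold of 0.05, 197 without the filter, 1 without Clone 28, 37 without Clone 35 and 37 without Clone 39. With the replicate block, a term for each pair, it was 521, or 177 without Clone 28, 359 without Clone 35 and 382 without Clone 39. The block also gave 263 genes in Clone 28 (12 without it, 7 with RLE size factors, 4 with its own 8 libraries), 21 in Clone 35, 16 in Clone 39 and 1 for the difference between clones. Between Clones 35 and 28 in DMSO, a term for the replicate number in the 12 DMSO libraries gave 3006 genes. Those 12 libraries gave 996 without the term, and all 24 libraries gave 1173. Against the fits of all 24 libraries without these terms, neither changed a call of the 10 genes but ZNRF3 between clones in DMSO. With the 12 DMSO libraries alone, 0 of the 10 genes differed between Clones 35 and 28, and LRP6 no longer differed between the clones (adjusted p = 0.115). With the replicate number as a block in these libraries, TCF7L2 between Clones 35 and 28 (0.00356) and LRP6 over the clones (0.00413) passed. The cause was not tested.

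Leaving out each library gave 66 to 149 genes for the treatment, 5565 to 6282 between clones in DMSO (5 to 7 of the 10 genes), 884 to 1200 between Clones 35 and 28 (0 to 1), 5162 to 5966 between Clones 39 and 28 (5 to 6), 4284 to 5195 between Clones 39 and 35 (5 to 7) and 5601 to 6291 between replicate numbers (2 to 3). The treatment count fell by over 1.5 times without replicate 3 (78) or 4 (66) of Clone 28 in DMSO, replicate 1 (75) or 2 (67) of Clone 28 in dTAG-13, replicate 3 of Clone 35 in dTAG-13 (77) or replicate 3 of Clone 39 in DMSO (80).

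Among the 10 genes in DMSO, TCF7L2 between Clones 35 and 28 did not pass without replicate 1 or 3 of Clone 28 (adjusted p = 0.140 and 0.137) or replicate 1 or 2 of Clone 35 (0.235 and 0.106). LRP6 between Clones 39 and 28 did not pass without replicate 3 or 4 of Clone 28 (0.191 and 0.212) or 1 or 2 of Clone 39 (0.149 and 0.143). Between Clones 39 and 35, LRP6 did not pass without replicate 4 of Clone 35 (0.176) or 1 or 2 of Clone 39 (0.110 and 0.104), nor ZNRF3 without replicate 1, 2 or 3 of Clone 35 (0.114, 0.175 and 0.111) or 1 or 2 of Clone 39 (0.248 and 0.200). Over the 3 clones, LRP6 did not pass without replicate 1 or 2 of Clone 39 (0.161 and 0.154), and ZNRF3 passed without replicate 4 of Clone 35 (0.0924) or 3 of Clone 39 (0.0646). TCF7L2 between replicate numbers did not pass without replicate 1 or 4 of Clone 35 (0.156 and 0.114) or 3 of Clone 39 (0.163). At 2 to 26 counts per library, LGR5 and AXIN2 are limited by depth.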
